A study of Mus musculus with 8 samples.

Results

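The genes described here are 7 signals that hold back T cells, microglia and macrophages: Cd274, Cd200, Cd200r1, Cd47, Sirpa, Cx3cl1 and Lgals9. They were chosen by gene symbol, with earlier results of these data known, and all 7 were found among the 24860 genes of the table. The 8 libraries are bulk RNA from mouse retina, labelled by the submitters as retinal ganglion cells. The 4 AAV2-shCX36 libraries come from retina given a viral vector, adeno-associated virus AAV2, whose short hairpin RNA is directed at connexin 36. This protein, encoded by Gjd2, forms gap junctions between retinal neurons. The 4 AAV2-scramble libraries come from retina given AAV2 with a scrambled hairpin and are the controls. Every library therefore carried AAV2 and a hairpin, and no uninjected retina is among them. The labels give no strain, age, injury, time after injection, dose or vector promoter. They name no animals either, so each p-value refers to variation among libraries, part of which may be technical.

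PD-L1, the product of Cd274, binds PD-1 on T cells and dampens their activation, and interferon induces it through IRF1 in many cell types. The other pairs act mainly on myeloid cells. Neuronal CD200 engages CD200R1 on microglia, CD47 is a "do not eat me" signal read by SIRPα on phagocytes, and fractalkine (CX3CL1), made by neurons and anchored in their membrane, restrains microglia through CX3CR1. Galectin-9 (Lgals9) is a sugar-binding protein that binds TIM-3 on T cells and myeloid cells.

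Cd274 and Cd200 rose in AAV2-shCX36 (2.24% of all genes tested rose) and no member fell (2.52% fell). Cd274 passed in all 22 alternative analyses, but Cd200 in only 14 of 22. Every AAV2-shCX36 library exceeded every control in Cd274, Cd200 and Cx3cl1, as in 8.85% of all genes. Cx3cl1 had an adjusted p just above the threshold. Cd274 had 10.4 times the control mean, Cd200 1.36 times and Cx3cl1 1.40 times. Sirpa, Lgals9 and Cd47 had overlapping groups, and Cd200r1 was at most 0.663 FPKM in all libraries. Sirpa and the receptor genes Cx3cr1 and Havcr2 were highest in AAV2-scramble 1 and 2, the controls with the most microglial RNA.

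Promoter sequence was examined because Cd274 and Lgals9 are known interferon-inducible genes. Windows of 250 bases upstream of the RefSeq start (GRCm38.p6) were found for 5 of the 7 members. Sirpa and Cd200r1 had none. The windows of Cd274 (chr19:29367188-29367437, plus strand), Lgals9 (chr11:78984925-78985174, minus strand) and Cd200 (chr16:45409054-45409303, minus strand) are shown 5′ to 3′ along the gene, as the 3 members whose window held a match to an interferon regulatory factor (IRF) pattern. Capitals mark those matches.
Cd274: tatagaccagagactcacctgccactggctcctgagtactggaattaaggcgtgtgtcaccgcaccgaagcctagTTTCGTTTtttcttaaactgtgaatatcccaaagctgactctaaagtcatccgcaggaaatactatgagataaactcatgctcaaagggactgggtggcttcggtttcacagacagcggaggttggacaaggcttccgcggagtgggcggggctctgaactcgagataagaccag
Lgals9: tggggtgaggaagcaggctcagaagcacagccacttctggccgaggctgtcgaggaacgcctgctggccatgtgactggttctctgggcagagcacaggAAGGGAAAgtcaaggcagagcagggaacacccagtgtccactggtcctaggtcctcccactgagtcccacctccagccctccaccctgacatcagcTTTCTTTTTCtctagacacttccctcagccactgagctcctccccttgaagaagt
Cd200: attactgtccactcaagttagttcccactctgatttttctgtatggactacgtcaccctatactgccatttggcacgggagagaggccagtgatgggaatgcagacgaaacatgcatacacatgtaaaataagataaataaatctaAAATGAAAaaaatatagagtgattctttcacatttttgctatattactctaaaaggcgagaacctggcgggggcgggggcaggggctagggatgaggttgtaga

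The IRF core AANNGAAA, searched on both strands, matched once in the Cd274 window, 168 to 175 bases upstream of the start, once in that of Cd200, 97 to 104 bases upstream, and at 2 places in that of Lgals9. This short pattern matched 21.3% of all 32851 windows. It was added after a longer pattern had been searched. The longer interferon-stimulated response pattern GAAANNGAAA, which can contain the core, matched 2.98% of windows, and among the members only that of Lgals9, 46 to 55 bases upstream, where it overlaps the second core match. The gamma-activated pattern TTCNNNGAA matched 7.02% of windows and that of no member. The windows of Cd47 and Cx3cl1 held none of the 3 patterns. These matches describe letters in the window and are not evidence of binding.

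The labelled target was checked first. Gjd2 (GRCm38 chromosome 2, 114009601 to 114013619, minus strand) had 17.0, 14.0, 14.6 and 16.6 FPKM in AAV2-shCX36 1 to 4 and 38.7, 35.9, 17.4 and 18.2 FPKM in AAV2-scramble 1 to 4. The groups did not overlap, but controls 3 and 4 were close to the AAV2-shCX36 range. The log2 difference was -0.70, with an exact permutation p of 0.0286 (two-sided), the smallest that 4 against 4 libraries allow, and an adjusted p of 0.148 in limma. A transcript on the opposite strand, A530058N18Rik, shares 57 exonic bases with Gjd2. FPKM counts sequenced fragments scaled to transcript length and library depth, so levels can be compared between genes. The libraries were not pure ganglion cells: the summed level of 6 rod photoreceptor markers was 803 to 1916 FPKM, beside 1517 to 2718 FPKM for 10 ganglion cell markers. All 6 rod markers and 4 of 7 Müller glia markers fell in AAV2-shCX36 in limma, beside 2.52% of all genes tested. None of the 10 ganglion cell markers passed (2.24% of all genes rose). Of these, Rbpms (59.3 to 71.9 against 35.3 to 53.4 FPKM in controls) and Thy1 (792 to 840 against 432 to 790) were higher in every AAV2-shCX36 library, as in 8.85% of all genes. The other ganglion cell markers had overlapping groups. Lens crystallins and other lens genes summed to 13.4 to 320.8 FPKM in AAV2-shCX36 and 0.388 to 15.2 in controls. The part of these shifts in the members' differences was not tested. AAV2-scramble 1 and 2 stood apart by their microglial RNA, with 611 and 583 FPKM summed over 11 microglial markers, against 300.4 and 141 in AAV2-scramble 3 and 4 and 131 to 223 in AAV2-shCX36. They also had more oligodendrocyte RNA, with 52.0 and 160.2 FPKM over 6 markers against 10.6 to 11.95 in all other libraries. Their 7 endothelial markers summed to 106 and 137 FPKM, against 39.3 and 27.3 in the other controls and 59.1 to 119 in AAV2-shCX36. In such bulk RNA, fewer cells of a type and less RNA per cell cannot be told apart.

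Cd274 (chromosome 19, 29367455 to 29388095, plus strand) showed the widest change of the members. AAV2-shCX36 1 to 4 had 11.7, 10.8, 11.8 and 4.67 FPKM. AAV2-scramble 1 to 4 had 1.12, 1.25, 0.703 and 0.696 FPKM. The groups did not overlap, and the lowest AAV2-shCX36 library, number 4, was still well above the highest control. The means were 9.76 ± 3.42 FPKM (SD, n = 4) and 0.941 ± 0.284 FPKM. On the log2(FPKM + 1) scale, which understates changes of low genes, the difference was 2.41 ± 0.26 (SE; limma adjusted p = 0.00225), the 35th highest of the 12858 genes tested. Cd274 passed in all 22 alternative analyses, with an adjusted p of 6.8e-05 to 0.0143. An antisense gene shares 511 exonic bases with Cd274. No source used here says whether counting took account of strand, so reads of the pair cannot be told apart.

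Within AAV2-shCX36, library 4 also had the lowest level of the rising genes of the interferon pathway. Irf1, an interferon-induced transcription factor known to act on the Cd274 promoter, had 20.6, 15.7, 14.6 and 9.51 FPKM in AAV2-shCX36 1 to 4 and 1.35 to 4.17 FPKM in controls. Irf9, the DNA-binding subunit of the type I interferon complex, had 34.6, 29.7, 37.9 and 22.8 FPKM against 6.07 to 10.8 FPKM. For both genes the groups did not overlap, and library 4 was the lowest of its group, as for Cd274. Among controls, libraries 1 and 2 had the higher values of Cd274, Irf1 and Irf9.

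**Figure D1:**
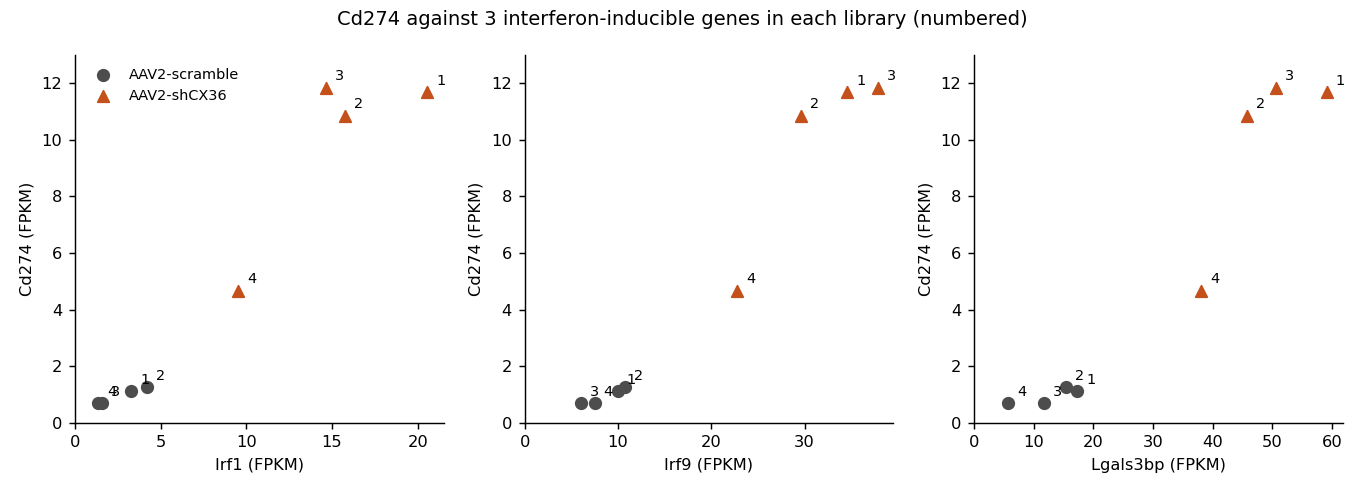
Cd274 (vertical, FPKM) against Irf1, Irf9 and Lgals3bp (horizontal, FPKM), 1 point per library, numbered. AAV2-shCX36 4 lies between the controls and the other 3 AAV2-shCX36 libraries in each panel, with Cd274 at 4.67 FPKM.

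Of 14 genes on a list running from interferon gamma to PD-L1, 13 passed the filter of a mean of at least 1 FPKM. Of these 5 rose and none fell in limma at an adjusted p under 0.05, with 6 higher and 1 lower at an unadjusted p under 0.05. Over all 12858 genes tested, 2.24% rose and 2.52% fell, and 12.3% were higher and 10.3% lower at an unadjusted p under 0.05. The list had a median log2 difference of 0.18, against 0.01 over all genes. The rising genes were Irf1 (2.20 ± 0.29, adjusted p = 0.00661), Irf9 (1.75 ± 0.19, adjusted p = 0.00238), its partner in the type I interferon complex Stat2 (1.43 ± 0.18), Stat3 (0.81 ± 0.11), and Socs1, a feedback inhibitor of JAK kinases (1.06 ± 0.21). In these 5 and in Jak1 (limma adjusted p = 0.120), 6 of the 13 tested, every AAV2-shCX36 library exceeded every control, as in 8.85% of all genes. In none of the 13 was every AAV2-shCX36 library below every control (7.05% of all genes). Socs1 passed in 12 of 21 alternatives (highest adjusted p 0.144) and the other 4 rising genes in all 22. The receptor chain Ifngr1 had 9.64 to 14.9 FPKM in AAV2-shCX36 and 13.4 to 23.6 in controls (adjusted p = 0.113). Ifng itself was listed at 0.781, 0, 0 and 0.066 FPKM in AAV2-shCX36 1 to 4 and at 0 in all controls.

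The receptor for PD-L1 was scarce. Pdcd1 (PD-1) had 0.140 to 0.537 FPKM in AAV2-shCX36 and 0.106 to 0.694 FPKM in controls, so the groups overlapped. Pdcd1lg2 (PD-L2), the other PD-1 ligand, was at 0.461, 0.132, 0.356 and 0.210 FPKM in AAV2-shCX36 1 to 4, and was listed at 0 in every control except number 2, with 0.0082. Both lay below the filter and were not tested. Cmtm6, which keeps PD-L1 at the cell surface, had 5.45 to 7.17 FPKM against 5.06 to 15.5 in controls (adjusted p = 0.248), and its relative Cmtm4 13.1 to 15.4 against 13.8 to 16.5 (adjusted p = 0.687). Neither of these 2 tested genes of the PD-L1 list passed in limma, and neither had an unadjusted p under 0.05. T cell markers were low throughout: the summed level of 9 genes was 2.12 to 3.60 FPKM in AAV2-shCX36 and 0.556 to 1.22 in controls, with Cd3e, Cd3g and Cd3d listed at 0 in all controls and at 0.017 to 0.442 in AAV2-shCX36. The 4 NK cell markers summed to 1.27 to 4.66 FPKM in AAV2-shCX36 and 0 to 0.341 in controls, and the part of such cells in the Cd274 difference was not tested.

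Cd200 (chromosome 16, 45382135 to 45409053, minus strand) is the neuronal ligand of CD200R1. It had 35.6, 39.0, 32.2 and 35.1 FPKM in AAV2-shCX36 1 to 4 and 23.7, 24.04, 28.5 and 28.1 FPKM in AAV2-scramble 1 to 4. All AAV2-shCX36 values exceeded all control values, and controls 1 and 2 were the lowest. The means were 35.5 ± 2.81 and 26.1 ± 2.56 FPKM (SD, n = 4), a log2 difference of 0.43 ± 0.08 (SE; limma adjusted p = 0.0256). The call was lost in 8 of 22 alternatives, with an adjusted p of up to 0.0825 when AAV2-shCX36 1, 2 or 4 or AAV2-scramble 1 or 2 was left out, 0.0555 with no filter on low values and 0.202 without AAV2-shCX36 1 and 4. With the replicate number as a block it was 0.110. The difference stayed positive in all 22, from 0.31 to 0.55.

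Levels of neuronal markers were not equal between libraries, and their part in the Cd200 and Cx3cl1 differences was not tested. The summed level of 5 neuronal markers, mostly Snap25 of the synaptic release machinery, was 1800 to 1891 FPKM in AAV2-shCX36 and 1547, 1250, 1733 and 1890 FPKM in AAV2-scramble 1 to 4. Per 1000 FPKM of these markers, Cd200 had 17.6 to 20.6 in AAV2-shCX36 and 14.9 to 19.2 in controls, where the groups overlapped through AAV2-scramble 2. Scaled in the same way to the ganglion cell list, Cd200 had 12.04 to 14.35 in AAV2-shCX36 and 10.74 to 15.85 in controls. There the control range enclosed the AAV2-shCX36 range. None of the 5 neuronal genes passed in limma, and they did not all shift the same way. Map2 was lower in every AAV2-shCX36 library than in any control (log2 difference -0.25, limma adjusted p = 0.0623), as in 7.05% of all genes. Rbfox3 was higher in every AAV2-shCX36 library (0.33, adjusted p = 0.179), as in 8.85% of all genes. Snap25, Syt1 and Tubb3 had overlapping groups. The sum, being mostly Snap25, does not show these differences.

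Cd200r1 (chromosome 16, 44765736 to 44794978, plus strand), the inhibitory receptor on myeloid cells, was the scarcest member and the only one below the filter. It had 0.264, 0.014, 0.172 and 0 FPKM in AAV2-shCX36 1 to 4 and 0.292, 0.663, 0.544 and 0.027 FPKM in AAV2-scramble 1 to 4. The groups overlapped, with 1 library near 0 in each. The difference in mean log2(FPKM + 1) was -0.30, and 8 of the 70 ways to split the libraries gave one at least as large (two-sided exact permutation p = 0.114). Cd200 exceeded Cd200r1 in every library. Close relatives of Cd200r1 can share its reads: Cd200r4 had at most 0.247 FPKM and Cd200r2 at most 0.015. In the list of the CD200 axis, neither of the 2 tested genes passed in limma or had an unadjusted p under 0.05. They were Rasa1 (11.8 to 13.5 against 13.3 to 15.7 FPKM, adjusted p = 0.239) and the adaptor gene Dok1 (0.516 to 1.07 against 0.364 to 2.89 FPKM, adjusted p = 0.370).

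Cx3cl1 (chromosome 8, 94772009 to 94782427, plus strand) was the most abundant member, with a mean above that of 96.4% of the genes tested. AAV2-shCX36 1 to 4 had 106.7, 110.4, 109.3 and 102.7 FPKM. AAV2-scramble 1 to 4 had 76.7, 59.0, 79.0 and 92.9 FPKM. The groups did not overlap, and AAV2-shCX36 values were tightly spaced while controls spread from number 2, the lowest, to number 4. The means were 107 ± 3.44 and 76.9 ± 13.9 FPKM (SD, n = 4), a log2 difference of 0.49 ± 0.12 (SE; limma adjusted p = 0.0503), which misses the threshold. In 8 of 22 alternatives it passed, among them quantile normalization (0.0391), rescaling to TPM (0.0421) and leaving out AAV2-scramble 2 (0.0350) or 4 (0.0198). The highest adjusted p, 0.242, came without AAV2-shCX36 1 and 4. Per 1000 FPKM of neuronal markers, Cx3cl1 had 55.3 to 59.7 in AAV2-shCX36 and 45.6 to 49.5 in controls, with no overlap. Per 1000 FPKM of the ganglion cell list it had 38.9 to 42.2 against 33.98 to 38.9, where the lowest AAV2-shCX36 library (38.88) and the highest control (38.87) met.

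The fractalkine receptor pointed the other way. Cx3cr1, which marks microglia, had 9.05, 12.3, 11.2 and 19.2 FPKM in AAV2-shCX36 1 to 4 and 56.2, 58.1, 28.2 and 10.6 FPKM in AAV2-scramble 1 to 4. The groups overlapped through AAV2-scramble 4, and the difference of -1.28 ± 0.48 had an adjusted p of 0.162 in limma. Per 1000 FPKM of the microglial list, which includes it, Cx3cr1 had 69.1 to 86.1 in AAV2-shCX36 and 75.6 to 99.8 in controls. The ligand was 5.34 to 11.8 times its receptor in AAV2-shCX36, and 1.36, 1.01, 2.80 and 8.75 times in AAV2-scramble 1 to 4, where number 4 fell within the AAV2-shCX36 range. Of the proteases that shed fractalkine, Adam10 had 15.0 to 16.5 against 14.1 to 18.2 FPKM and Adam17 4.27 to 5.54 against 3.81 to 8.32 FPKM (adjusted p = 0.622 and 0.431). None of the 3 tested genes of this axis passed, and Cx3cr1 alone had an unadjusted p under 0.05.

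**Figure D2:**
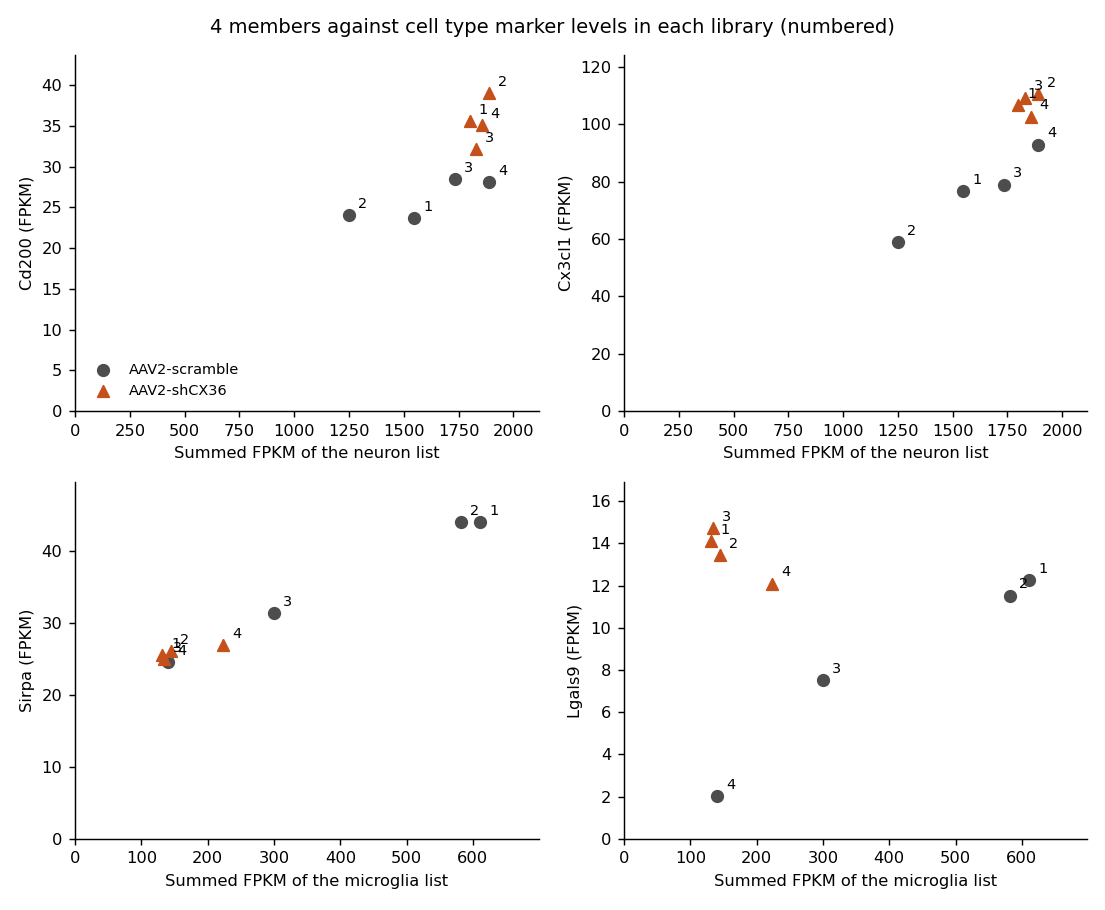
Cd200 and Cx3cl1 (FPKM) against the summed FPKM of 5 neuronal markers, and Sirpa and Lgals9 against that of 11 microglial markers, 1 point per library, numbered. The 3 controls with the most microglial RNA have the highest Sirpa, whereas AAV2-shCX36 1 to 3, with 131 to 145 FPKM of microglial markers, have more Lgals9 than any control.

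Cd47 (chromosome 16, 49800533 to 49915010, plus strand) was the steadiest member. It had 20.2, 21.2, 18.8 and 18.7 FPKM in AAV2-shCX36 1 to 4 and 18.6, 19.0, 17.9 and 19.5 FPKM in AAV2-scramble 1 to 4. The groups overlapped, with AAV2-shCX36 1 and 2 above every control and AAV2-scramble 1 and 3 below every AAV2-shCX36 library. The log2 difference was 0.07 ± 0.06 (SE; limma adjusted p = 0.537), with a 95% interval of -0.07 to 0.21.

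Sirpa (chromosome 2, 129592835 to 129632228, plus strand), the CD47 receptor of myeloid cells that neurons also express, had 25.6, 26.0, 25.0 and 26.9 FPKM in AAV2-shCX36 1 to 4. AAV2-scramble 1 to 4 had 44.1, 44.0, 31.4 and 24.5 FPKM. Controls 1 and 2 were high, and control 4 was below every AAV2-shCX36 library. The log2 difference was -0.42 ± 0.17 (SE; limma adjusted p = 0.183). Sirpa passed in 2 of 22 alternatives: it was lower by -0.59 without AAV2-scramble 4 (adjusted p = 0.0254) and by -0.75 without AAV2-scramble 3 and 4 (adjusted p = 0.000819). Without AAV2-scramble 1 and 2 the difference was -0.10 (adjusted p = 0.555). The 3 libraries with the most microglial RNA, AAV2-scramble 1 to 3, had the 3 highest Sirpa levels, and the part of microglial RNA in the difference was not tested. The relatives Sirpb1a, Sirpb1b and Sirpb1c, which can share its reads, had at most 0.107, 0.030 and 0.238 FPKM.

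Cd47 was 0.693 to 0.813 times the Sirpa level in AAV2-shCX36 and 0.421, 0.431, 0.570 and 0.795 times in AAV2-scramble 1 to 4. None of the 3 tested genes of the CD47 list passed in limma or had an unadjusted p under 0.05. Qpctl, the enzyme that modifies the SIRPα-binding end of CD47, had 6.46 to 7.59 FPKM against 4.74 to 7.44 in controls (adjusted p = 0.401). Ptpn11 (SHP-2), a phosphatase recruited by SIRPα, had 34.9 to 39.8 against 32.4 to 36.1 FPKM (adjusted p = 0.434).

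Lgals9 (chromosome 11, 78962974 to 78984946, minus strand) had 14.1, 13.4, 14.7 and 12.1 FPKM in AAV2-shCX36 1 to 4. AAV2-scramble 1 to 4 had 12.3, 11.5, 7.52 and 2.04 FPKM. AAV2-scramble 1 just exceeded the lowest AAV2-shCX36 library, number 4 and AAV2-scramble 4 was far below it. The log2 difference was 0.85 ± 0.41 (SE; limma adjusted p = 0.255), and 0.37 (adjusted p = 0.140) without AAV2-scramble 4 alone. It passed in 1 of 22 alternatives, without AAV2-scramble 1 and 2 (1.52, adjusted p = 0.0352), and was 0.18 (adjusted p = 0.172) without AAV2-scramble 3 and 4. Per 1000 FPKM of the microglial list, Lgals9 had 108, 92.6, 110 and 54.2 in AAV2-shCX36 1 to 4 and 20.1, 19.8, 25.0 and 14.5 in AAV2-scramble 1 to 4, where the groups did not overlap. That ratio was formed after the values were seen. Its denominator was 131 to 223 FPKM in AAV2-shCX36 and 141 to 611 in controls. The part of the denominator in the separation was not tested. Sirpa, scaled in the same way, had 195, 179, 187 and 121 in AAV2-shCX36 1 to 4. In AAV2-scramble 1 to 4 it had 72.1, 75.5, 105 and 175, so the groups overlapped.

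The galectin-9 receptor Havcr2 (TIM-3) had 2.06, 2.03, 1.81 and 2.64 FPKM in AAV2-shCX36 1 to 4 and 7.20, 7.56, 2.78 and 1.82 FPKM in AAV2-scramble 1 to 4. Controls 1 and 2 were again high and control 4 lay within the AAV2-shCX36 range (adjusted p = 0.234). Of the 7 tested genes of the galectin-9 list 2 rose and none fell in limma, against 2.24% and 2.52% of all genes. At an unadjusted p under 0.05, 3 were higher and none lower (12.3% and 10.3% of all genes), and the median log2 difference was 0.19. Lgals3bp, an interferon-inducible galectin-binding protein, had 59.1, 45.8, 50.6 and 38.1 FPKM in AAV2-shCX36 1 to 4 and 17.3, 15.4, 11.7 and 5.69 FPKM in AAV2-scramble 1 to 4 (log2 difference 1.95 ± 0.29, adjusted p = 0.0102). Lgals3 (galectin-3) had 3.14 to 7.43 against 1.13 to 2.51 FPKM (1.09 ± 0.25, adjusted p = 0.0416), and passed in 11 of 21 alternatives. In neither gene did the groups overlap.

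Among 10 tested genes of other checkpoint ligands and receptors 1 rose and none fell (2.24% and 2.52% of all genes), with a median of -0.21. At an unadjusted p under 0.05, 2 were higher and 2 lower, beside 12.3% and 10.3% of all genes. The rising gene was H2-T23, the class I-like Qa-1 heavy chain that engages the inhibitory NKG2A receptor of NK and CD8 T cells, at 40.9 to 82.1 FPKM against 4.70 to 15.8 (2.55 ± 0.34, adjusted p = 0.00664). H2 genes have close relatives, so its share of reads is uncertain. Klrc1, the gene of NKG2A, was listed at 0 in all libraries but AAV2-shCX36 4, with 0.052 FPKM. Ctla4, an inhibitory T cell receptor, was listed at 0 in all 4 controls and at 0.228 to 0.536 FPKM in AAV2-shCX36, below the filter. Vsir (VISTA), a checkpoint protein abundant in microglia, had 3.90 to 8.47 against 4.31 to 25.8 FPKM (adjusted p = 0.158).

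A further list held other genes linked to the regulation of microglia or T cells, not all of which restrain these cells. Of its 15 tested genes, 1 rose and 1 fell in limma (2.24% and 2.52% of all genes), with a median of -0.41. At an unadjusted p under 0.05, 2 were higher and 7 lower, beside 12.3% and 10.3% of all genes. Csf1, a survival factor of microglia, had 5.69, 5.67, 5.82 and 4.86 FPKM in AAV2-shCX36 1 to 4 and 2.45, 3.19, 2.70 and 1.91 FPKM in AAV2-scramble 1 to 4 (0.88 ± 0.12, adjusted p = 0.00675). Nt5e (CD73), which makes adenosine, had 3.02 to 3.92 against 5.601 to 8.26 FPKM (-0.73 ± 0.12, adjusted p = 0.0140). The groups did not overlap in either gene. Csf1 passed in 20 and Nt5e in 18 of 21 alternatives. Several of the others, such as Siglech and Trem2, are microglial genes whose control values were highest in AAV2-scramble 1 and 2.

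Read together, 2 of the 6 tested members rose (2.24% of all genes tested rose) and none fell (2.52% fell), with 3 higher and 1 lower at an unadjusted p under 0.05 (12.3% and 10.3% of all genes). In 3 of the 6 every AAV2-shCX36 library exceeded every control, as in 8.85% of all genes, and in none was every AAV2-shCX36 library below, as in 7.05%. Over the 8 lists of partner genes, 9 of 55 tested rose and 1 fell, with a median of -0.07. Members and lists were chosen with earlier results of these data known, so these counts are descriptions only. Among the 4 controls, AAV2-scramble 1 and 2 had the 2 highest values of Cd274, Sirpa and Lgals9 and the 2 lowest of Cd200 and Cx3cl1. Neither held for Cd47 or Cd200r1. Whether the 7 members vary independently was not tested.

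**Figure D3:**
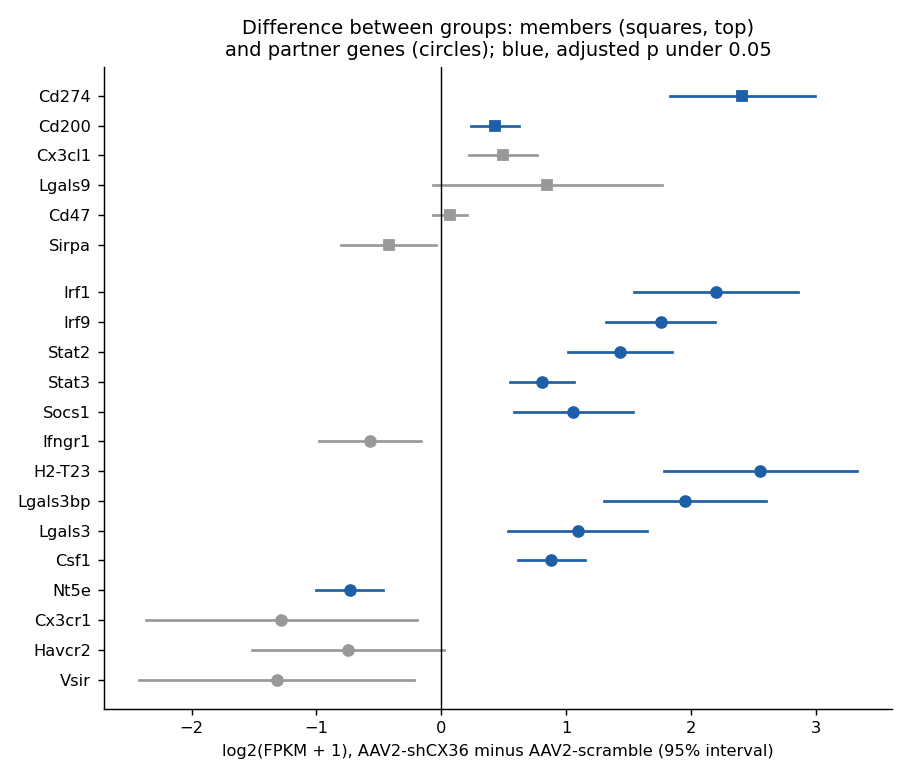
Differences in log2(FPKM + 1), AAV2-shCX36 minus AAV2-scramble (horizontal), with 95% intervals, for the 6 tested members (squares) and 14 partner genes (circles). Blue marks an adjusted p under 0.05, and Cd274 at 2.41 lies between H2-T23 at 2.55 and Irf1 at 2.20.

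The genes whose levels over the 8 libraries were most like those of each member were also listed. The correlations (Pearson's r of log2(FPKM + 1), the highest among 12858 genes) are descriptions with no p, since the genes were picked for them and the libraries share 2 groups. For Cd274 the nearest were H2-T22 (r = 0.995), a class I-like gene, Ifit3 (0.994), an interferon-induced protein, and Trim21 (0.993), a cytosolic antibody receptor that interferon induces. H2-T22 had 23.8 ± 5.31 FPKM in AAV2-shCX36 and 4.44 ± 0.381 in controls (SD, n = 4). For Cx3cl1 they were Rnf187 (0.996), Cplx1 (0.994), the complexin of neurotransmitter release, and Atp9a (0.993). For Sirpa they were Tgfbr1 (0.992), a TGF-β receptor, Hvcn1 (0.990), a proton channel of phagocytes, and Soga1 (0.990). For Cd200 they were Flot2 (0.985), Anks1b (0.981) and Gorasp2 (0.977), for Lgals9 Ltbr (0.978), Ptprs (0.972) and Apobec1 (0.969), and for Cd47 Oxsm (0.957), Rfc1 (0.946) and Trappc10 (0.938).

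**Figure D4:**
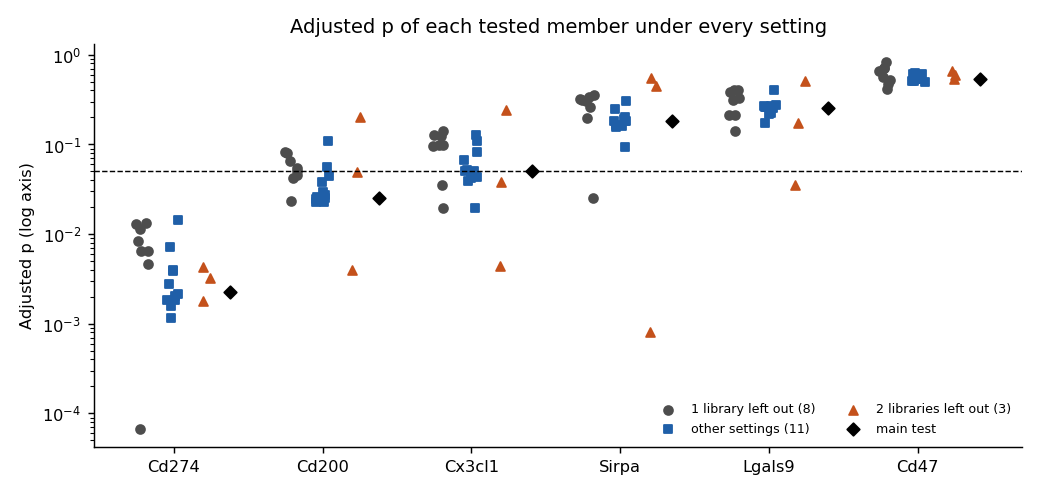
Adjusted p (vertical, log axis) of the 6 tested members in the main test and in 8 omissions of 1 library, 11 other settings and 3 omissions of 2 libraries. The dashed line is the threshold of 0.05: Cd274 lies below it throughout, Cd200 and Cx3cl1 straddle it, and Cd47 lies above it throughout.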

How the data were processed

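The authors deposited FPKM for 24860 gene symbols in 8 libraries. No count model was used. Total RNA was sequenced as 150 bp paired-end reads, per the labels' protocols. The submitters' processing notes name fastp, HISAT2, HTSeq, R 3.2.0, DESeq2, GRCm38 and mm10, with no roles. Columns were matched to samples by name, with 0 unmatched. Low values of single-exon genes had steps that fit about 35900000 to 39200000 fragments per library, but 24.8% to 34.0% were whole multiples within 0.05, so counts were not recovered.

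Genes averaging 1 FPKM or more (12858) were taken as log2(FPKM + 1) into limma 3.58.1 under R 4.3.3 (lmFit, then eBayes with its trend option). Calls used Benjamini-Hochberg adjustment over all of them at 0.05. The fit was tested on simulated data. Cd200r1, below the filter, had an exact permutation test. Means and SD are over n = 4. Positions are from GENCODE M21 (GRCm38) and promoters from RefSeq (GRCm38.p6).

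Members and lists were chosen with earlier results of these data known. Named genes were the members, direct receptors and ligands, called list genes or else the 2 with the smallest p, and the 3 nearest genes per tested member. Others (Adam10, the relatives of Sirpa and Cd200r1, Ifng, Ifngr1, Ctla4, Klrc1, Vsir, Siglech, Trem2 and markers) were named after their values were seen. Cd200r3 was not found, and 1 gene of the interferon list is not reported here. 13 marker lists were summed. Alternatives were pseudocounts of 0.1 and 0.5, no filter or 5 FPKM, 3 scalings, 2 variance models, library weights, a replicate block and omitted libraries. Omitted pairs were chosen after seeing the data. Tables were made with pandas 2.3.3 and numpy 2.4.6 under Python 3.11.15, and plots with matplotlib 3.10.9.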

Additional observations from a re-analysis of the deposited data

Results flagged for a closer look

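In 21 genes, each group of 4 libraries was searched for a library far from the other 3 (Dixon's test at its 95% critical value), which chance gives in about 1 of 20 groups. Of 42 groups 3 held one. Cd274 in AAV2-shCX36 4, at 4.67 FPKM, lay below the other 3 libraries of its group, which had at least 10.8 FPKM. Csf1 was also lowest in AAV2-shCX36 4, at 4.86 FPKM, against at least 5.67 in the other 3. Pdcd1lg2 was above 0 in a single control, AAV2-scramble 2, at 0.00816 FPKM.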

How the results depend on the processing

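The direction of all 6 tested members was the same in the 22 alternatives. The count of rising members, 2, was 1 to 3 with 1 library left out, 1 with no filter on low values, 4 when AAV2-scramble 1 and 2 were dropped, and 1 when AAV2-shCX36 1 and 4 were. The count of falling members, 0, was 0 to 1 with 1 library left out and 1 (Sirpa) without AAV2-scramble 3 and 4. Rising genes of the partner lists, 9, were 4 without AAV2-shCX36 1 and 4. Falling ones, 1, were 0 to 12 with 1 library left out (12 without AAV2-scramble 4), 2 with library weights, median-of-ratios scaling or quantile normalization, 0 without AAV2-shCX36 1 and 4, and 23 without AAV2-scramble 3 and 4, the controls with less microglial RNA. The causes were not tested. With the replicate number as a block, 1 member rose (Cd274, adjusted p = 0.00722; Cd200 had 0.110), and 7 partner genes rose and 0 fell. The labels do not say whether the numbers pair the libraries. Same-numbered libraries had correlations of their deviations from the group mean of 0.13, -0.30, 0.23 and -0.27. Differently numbered ones had -0.24 to 0.27, so these correlations cannot decide whether the libraries were paired. Values near 0 FPKM, as for Cd200r1, Pdcd1 and the T cell genes, rest on few fragments.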

Other observations

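Single genes of the blood cell marker lists differed in how they varied between groups. Ly6c2, a marker of inflammatory monocytes, had 4.20, 1.90, 3.57 and 2.22 FPKM in AAV2-shCX36 1 to 4 and at most 0.151 in controls (limma adjusted p = 0.00188). Of the 8 genes of the monocyte or macrophage list 5 were tested, and Ly6c2 alone was called (2.24% of all genes rose). The sum of the 8 overlapped between groups, at 42.5 to 57.0 FPKM in AAV2-shCX36 and 35.6 to 85.9 in controls. Itgam, Cd14, Lyz2 and Adgre1 of that list had log2 differences of -0.60, -0.58, -0.32 and 0.06 (limma adjusted p = 0.339, 0.477, 0.421 and 0.941). Its other genes were below the filter. Ccr2 had 0.0801 to 0.316 FPKM in AAV2-shCX36 and at most 0.0059 in controls. Ms4a7 had 0.898 to 1.30 against 0.215 to 0.938 FPKM, and Mrc1 0.330 to 0.910 against 0.222 to 0.875, both with overlapping groups. Of the NK cell list, Gzma, a granzyme of NK and cytotoxic T cells, had 3.48, 1.15, 0.552 and 1.06 FPKM in AAV2-shCX36 1 to 4 and was listed at 0 in all 4 controls. Nkg7, another cytotoxic granule gene, had 0.360 to 1.08 FPKM and was likewise listed at 0 in the controls. Ncr1 had 0.0178 to 0.145 FPKM in AAV2-shCX36 and 0 in the controls. Klrb1c overlapped between groups, at 0 to 0.175 FPKM in AAV2-shCX36 and 0 to 0.341 in controls. All 4 genes of the NK cell list were below the filter and were not tested. In the same libraries P2ry12, a marker of resting microglia, had 3.65 to 6.67 FPKM (limma adjusted p = 0.0302). AAV2-scramble 1 to 4 had 37.5, 39.8, 19.3 and 8.22 FPKM. Of the 11 microglial markers tested, P2ry12 alone was called (2.52% of all genes fell). The sum of the 11 overlapped between groups, at 131 to 223 FPKM in AAV2-shCX36 and 141 to 611 in controls. These genes were picked after their values were seen.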
